A study of Mus musculus with 6 samples.

Results

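The neurabin gene Ppp1r9a, the adherens junction gene Ajap1 and the latrophilin gene Adgrl2 are described here by the H3K9me3 regions that the authors' annotation assigns to them in mouse quadriceps femoris, 305 of the 202553 regions in the deposited table. All rows naming one of the 3 symbols were taken, which gave 16 regions for Ppp1r9a, 101 for Ajap1 and 188 for Adgrl2. The genes were chosen by the counts of these same libraries, because in each of them 1 region had passed the test of Prr14-KO against Prr14-WT with a lower value in Prr14-KO. Differences between the genotypes at their regions are therefore given as a description, and the fitted p-values printed for them support nothing.

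Quadriceps femoris, a thigh muscle, was profiled by CUT&Tag with an antibody to H3K9me3, an assay that brings a transposase to the antibody and sequences the fragments it releases around the mark. There were 3 Prr14-KO libraries (replicates 4, 5 and 7) and 3 Prr14-WT libraries (replicates 3, 4 and 8). The sources used here do not give the strain, age, sex, knockout allele or batch of the mice. Nothing in them states that the libraries come from separate mice, so p-values measure the spread between these libraries, which may be technical. The Prr14-KO libraries held 4324444 to 4707466 counts and the Prr14-WT libraries 4636898 to 4756133, so their depths overlapped.

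H3K9me3 marks constitutive heterochromatin. It is written by the SUV39H and SETDB1 methyltransferases, is bound by HP1, and lies over repeats, gene deserts and genes that a tissue keeps silent. PRR14 is a nuclear lamina protein that binds HP1 and so tethers such chromatin to the nuclear periphery. Of the 3 genes, Ppp1r9a encodes neurabin, which binds actin filaments and protein phosphatase 1 in dendritic spines. Ajap1 encodes a transmembrane protein of adherens junctions that associates with the cadherin and catenin complex. Adgrl2 encodes latrophilin 2, an adhesion G protein-coupled receptor whose ligands include teneurins and FLRT proteins. A histone mark does not report expression, so the muscle label was not checked against marker genes.

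Most regions assigned to Ajap1 and Adgrl2 lay outside the gene. Of the 305 regions, 272 were annotated as intergenic. Ppp1r9a had 9 of its 16 regions inside its RefSeq span on chromosome 6 (4902872 to 5165661, GRCm38.p6), and the rest reached upstream to 4832123. Ajap1 had 18 of 101 inside its span on chromosome 4 (153373221 to 153483795), within a stretch of 723 kb. Adgrl2 had 5 of 188 inside its span on chromosome 3 (148815586 to 148989096), within a stretch of 2.34 Mb. Positions of regions are printed as deposited, and the sources used here do not say whether they count from 0 or 1.

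A promoter region was recorded at Ppp1r9a itself, and part of its sequence is shown because this deposited region overlapped a RefSeq promoter window. The region ran from 4902770 to 4903049 and the window, of 300 bases, from 4902725 to 4903024 on the plus strand. The bases of that window before the RefSeq span of the gene (chr6:4902725-4902871, GRCm38.p6, plus strand) are given 5′ to 3′ from RefSeq, with the 102 bases inside the deposited region in capitals.
Ppp1r9a: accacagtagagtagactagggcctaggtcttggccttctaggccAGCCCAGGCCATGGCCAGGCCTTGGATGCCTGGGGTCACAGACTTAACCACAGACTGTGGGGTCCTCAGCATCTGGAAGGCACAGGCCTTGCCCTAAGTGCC
This stretch held 0 CG dinucleotides, the motif written CG, which reads the same on both strands. The full window held 10, a number that 43.5% of the 32851 RefSeq promoter windows of that length reach. A second Ppp1r9a window, from 4903061 to 4903360, held 48 CG, a number that 1.22% of windows reach. It began 12 bp beyond the deposited region and overlapped none.

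The Ajap1 leading site, described next, lay inside the long non-coding gene Gm31055 (153148648 to 153165127), and the sequence upstream of that gene's start is shown because the gene holds the site. It is chr4:153165128-153165377 (GRCm38.p6, minus strand, 5′ to 3′, RefSeq), with CG in capitals.
Gm31055: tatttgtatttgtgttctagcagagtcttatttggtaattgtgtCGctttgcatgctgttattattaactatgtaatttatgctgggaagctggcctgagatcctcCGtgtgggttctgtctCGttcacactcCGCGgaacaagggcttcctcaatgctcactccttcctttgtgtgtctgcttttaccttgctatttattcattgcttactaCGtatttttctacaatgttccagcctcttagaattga
These 250 bases held 6 CG, and the full window of 300 bases held 8, which 48.6% of windows reach. No deposited region overlapped it, and the nearest was 4176 bp away. The Ajap1 window (153482781 to 153483080) held 51 CG, reached by 0.715% of windows, and had no region within 9955 bp. The Adgrl2 window (148954586 to 148954885) held 4 CG, reached by 68.6% of windows, and lay inside the RefSeq span, 34371 bp from the nearest region. That region, at 148989256, is the one the authors annotate as a promoter at the end of the span where Adgrl2 starts, a place for which no window was examined.

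Each gene had 1 leading site, the region of smallest p in the comparison of genotypes, and this site was also the densest of its gene. Density is the mean CPM over the 6 libraries per kb of region, CPM being the count scaled to a common library size. The Ppp1r9a site reached 207 CPM per kb, 11.6 times the next region of the gene. The Adgrl2 site reached 244 CPM per kb, 8.02 times the next, and the Ajap1 site 240 CPM per kb, 3.42 times the next. The typical region of these genes was far less dense, with medians of 10.8, 19.2 and 11.5 CPM per kb for Ppp1r9a, Ajap1 and Adgrl2, against 11.1 over all regions. In the whole table the sites ranked 117th (Ppp1r9a), 99th (Ajap1) and 97th (Adgrl2) by density. These values pool both genotypes. Taken apart, the Ppp1r9a site had 119.6 CPM per kb in Prr14-KO and 294 in Prr14-WT, which is 6.54 times the next region of the gene in Prr14-KO and 12.6 times in Prr14-WT. The Ajap1 site had 150.4 CPM per kb in Prr14-KO and 329 in Prr14-WT, or 2.15 times the next in Prr14-KO and 4.67 times in Prr14-WT. The Adgrl2 site had 164 CPM per kb in Prr14-KO and 323 in Prr14-WT, or 4.57 times the next in Prr14-KO and 10.5 times in Prr14-WT. Each site was thus the densest of its gene in both genotypes. By the authors' score per region, a value that the sources used here do not explain, they ranked 46th, 26th and 60th. Their widths were close, at 466, 519 and 460 bp, and 3, 36 and 48 regions of the same gene were wider. The sequences of the sites were not analysed here, so whether they hold repeats or differ in copy number from the reference genome was not tested.

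At the Ppp1r9a site, in an intron at 4923777 to 4924243 on chromosome 6 and 17603 bp from its assigned start, the counts were 234, 229 and 219 in Prr14-KO replicates 4, 5 and 7, against 711, 485 and 578 in Prr14-WT replicates 3, 4 and 8. Every Prr14-KO library lay below every Prr14-WT library, and the gap between the groups was 56.4 CPM. Scaled, the site averaged 55.7 ± 1.76 CPM in Prr14-KO and 137 ± 23.7 CPM in Prr14-WT (SD, n = 3 each), so that Prr14-KO kept 40.6% of the Prr14-WT level. The log2 change was -1.30 (SE 0.15).

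At the site assigned to Ajap1, intergenic in the authors' annotation at 153153035 to 153153554 on chromosome 4, the counts were 303, 346 and 304 in Prr14-KO replicates 4, 5 and 7, against 892, 691 and 625 in Prr14-WT replicates 3, 4 and 8. The groups did not overlap, with a gap of 59.7 CPM. The site averaged 78.05 ± 8.48 CPM in Prr14-KO and 171 ± 28.7 CPM in Prr14-WT (SD, n = 3 each), which is 45.7% of the Prr14-WT level and a log2 change of -1.13 (SE 0.14). It lay 219667 bp from the span of Ajap1, the nearest protein-coding gene of RefSeq.

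At the site assigned to Adgrl2, intergenic at 149052475 to 149052935 on chromosome 3, the counts were 312, 310 and 301 in Prr14-KO replicates 4, 5 and 7, against 737, 612 and 573 in Prr14-WT replicates 3, 4 and 8. Again all Prr14-KO libraries were the lower ones, by a gap of 56.5 CPM. The averages were 75.5 ± 2.75 CPM in Prr14-KO and 149 ± 16.9 CPM in Prr14-WT (SD, n = 3 each), or 50.7% of the Prr14-WT level and a log2 change of -0.98 (SE 0.15). This site lay upstream of Adgrl2, 63379 bp from its span and in no RefSeq gene.

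These 3 sites were the members that passed the test across all regions, at edgeR adjusted p-values of 1.10e-13 (Ppp1r9a), 5.72e-11 (Ajap1) and 2.26e-07 (Adgrl2), where 0.013% of all 153789 regions tested passed in either direction and 0.00975% passed with the lower value in Prr14-KO. DESeq2 and limma-voom also called these 3 members, where they called 0.0175% and 0.00845% of the regions. Since this contrast chose the genes, nothing is read from these counts. In the authors' deposited table the log2 fold changes were -1.35, -1.19 and -1.03, with adjusted p-values of 1.47e-09, 6.35e-07 and 1.63e-05 for Ppp1r9a, Ajap1 and Adgrl2, and 0.00796% of its regions with an adjusted p passed.

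**Figure D1:**
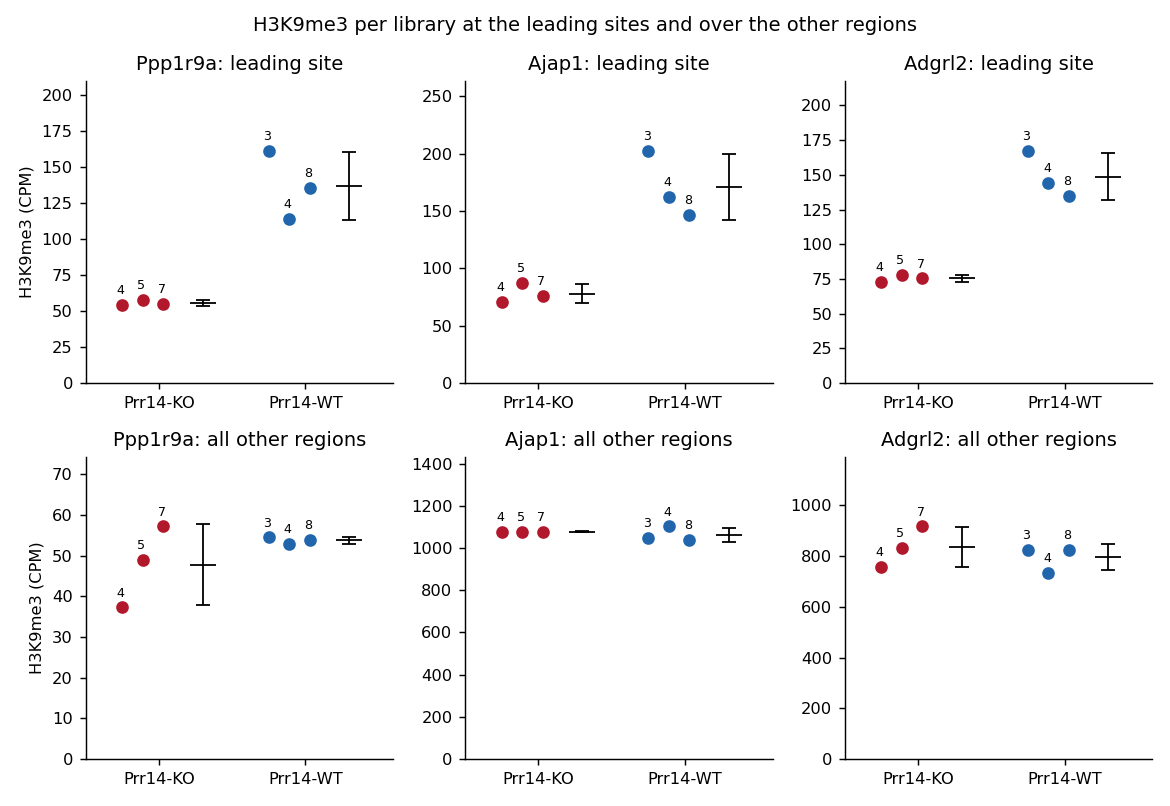
H3K9me3 in CPM per library (numbers are replicate numbers) at the leading site of each gene (top) and summed over the other regions of that gene (bottom), for Prr14-KO (red) and Prr14-WT (blue); bars are the mean ± SD of 3 libraries. The genotypes are apart at the 3 sites, with Prr14-KO means of 55.7, 78.05 and 75.5 CPM against Prr14-WT means of 137, 171 and 149 CPM, while they overlap in the lower panels.

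Among the libraries, Prr14-WT replicate 3 was the highest at each of the 3 sites, which lie on different chromosomes. Within Prr14-KO, replicate 5 was the highest at each in CPM, by small margins at Ppp1r9a and Adgrl2. The ratio of the Ajap1 site to the Adgrl2 site ran from 0.971 to 1.21 over the 6 libraries, and that of Ppp1r9a to Ajap1 from 0.662 to 0.925. Their log2 profiles, centred on their means, differed by a root mean square of 0.105 between Ajap1 and Adgrl2, 0.155 between Ppp1r9a and Ajap1, and 0.189 between Ppp1r9a and Adgrl2. The genes were chosen for the same difference, so this likeness is no finding.

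The spread within each genotype is given with its counting error. At the Ppp1r9a site the coefficient of variation was 3.16% over the Prr14-KO and 17.3% over the Prr14-WT libraries, where counting error alone gives 6.63% in Prr14-KO and 4.11% in Prr14-WT. At the Ajap1 site it was 10.9% in Prr14-KO and 16.8% in Prr14-WT (counting error 5.61% and 3.69%), and at the Adgrl2 site 3.65% in Prr14-KO and 11.3% in Prr14-WT (counting error 5.70% and 3.95%). The sites were chosen by these same counts, so the spreads are a description, and their difference was not tested.

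The regions next to the sites showed no such split. The Ppp1r9a neighbour 6.66 kb away on the lower side averaged 3.50 ± 2.04 CPM in Prr14-KO and 3.48 ± 1.06 CPM in Prr14-WT (SD, n = 3 each). That 8.95 kb away on the higher side averaged 3.05 ± 1.20 CPM in Prr14-KO and 2.64 ± 1.18 CPM in Prr14-WT. Both are annotated as intronic, and their counts were between 5 and 21 in every library, so that only large changes could have been seen there.

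Next to the Ajap1 site, 4.09 kb away and also within Gm31055, lay the second densest region of that gene, at 153157648 to 153158339. It held 239, 186 and 168 counts in Prr14-KO replicates 4, 5 and 7, against 219, 208 and 201 in Prr14-WT replicates 3, 4 and 8, and the groups overlapped. Its averages were 48.2 ± 6.86 CPM in Prr14-KO and 48.7 ± 1.27 CPM in Prr14-WT (SD, n = 3 each), a log2 change of -0.01 (SE 0.17). The leading site held 1.27, 1.86 and 1.81 times the counts of this neighbour in Prr14-KO replicates 4, 5 and 7, against 4.07, 3.32 and 3.11 times in Prr14-WT replicates 3, 4 and 8. On the other side, 6.14 kb away, the neighbour averaged 20.9 ± 4.01 CPM in Prr14-KO and 17.4 ± 3.38 CPM in Prr14-WT.

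Around the Adgrl2 site the neighbours were weak. The one 6.59 kb away held 6, 9 and 12 counts in Prr14-KO replicates 4, 5 and 7, against 21, 5 and 3 in Prr14-WT replicates 3, 4 and 8, and did not pass the filter on low counts. The one 5.03 kb away averaged 3.89 ± 1.86 CPM in Prr14-KO and 3.87 ± 1.81 CPM in Prr14-WT (SD, n = 3 each). Both pairs of groups overlapped.

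**Figure D2:**
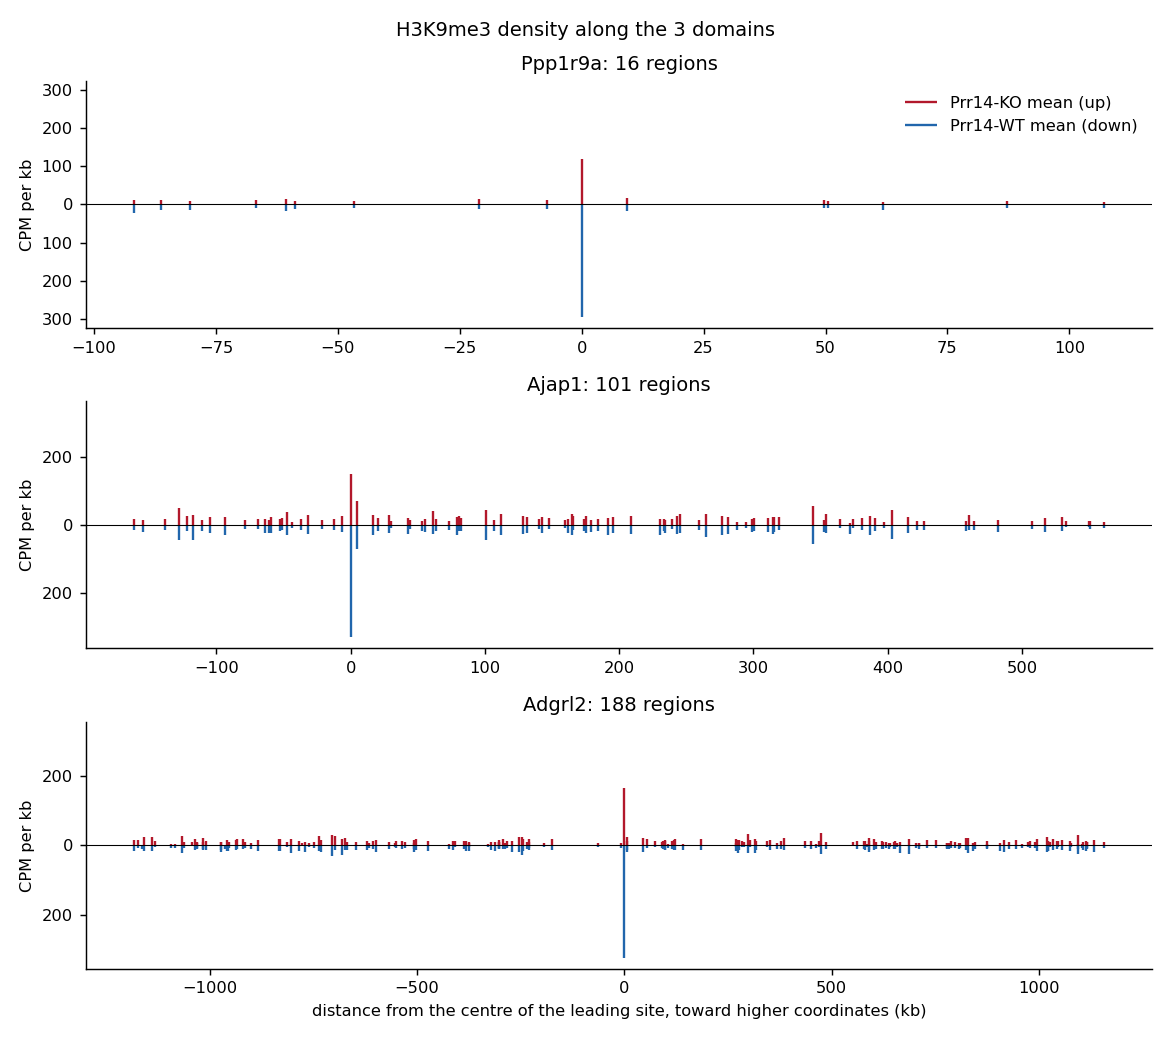
Density of H3K9me3 (CPM per kb) of every region assigned to each gene against the distance in kb from the centre of its leading site, with Prr14-KO means drawn upward in red and Prr14-WT means drawn downward in blue. The leading sites stand above all others, at 207 CPM per kb for Ppp1r9a, 240 for Ajap1 and 244 for Adgrl2 over both genotypes and at them the blue line is longer than the red.

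Summed over the rest of each gene, the genotypes overlapped. The other 15 regions of Ppp1r9a held 37.3, 48.9 and 57.2 CPM in Prr14-KO replicates 4, 5 and 7, against 54.5, 52.9 and 53.8 CPM in Prr14-WT replicates 3, 4 and 8. Prr14-KO spread widely on both sides of Prr14-WT, around a log2 ratio of the means of -0.17. The other 100 regions of Ajap1 averaged 1077 ± 1.48 CPM in Prr14-KO and 1062 ± 35.1 CPM in Prr14-WT (SD, n = 3 each), a log2 ratio of 0.02. For Adgrl2, the other 187 regions held 757, 832 and 917 CPM in Prr14-KO replicates 4, 5 and 7, against 826, 735 and 826 CPM in Prr14-WT replicates 3, 4 and 8, a log2 ratio of 0.07. In Prr14-KO the rest of Ppp1r9a and of Adgrl2 was lowest in replicate 4 and highest in replicate 7. The share of counts on the mitochondrial chromosome had the same order there, at 0.146%, 0.248% and 0.612% in Prr14-KO replicates 4, 5 and 7, against 0.174%, 0.189% and 0.366% in Prr14-WT replicates 3, 4 and 8, and its part in these values was not tested. At the leading sites the Prr14-KO libraries did not follow that order. In Prr14-WT the share rose over replicates 3, 4 and 8. Over these the Ajap1 site fell from 203 to 163 and 147 CPM, and the Adgrl2 site from 167 to 144 and 135 CPM. The Ppp1r9a site, at 161.5, 114 and 136 CPM, had no such order. A part of this share in the values of the sites was not tested either.

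The rest of each gene was also summed by distance from the site. Within 50 kb, the other regions of Ppp1r9a summed to 16.9 ± 5.72 CPM in Prr14-KO and 16.3 ± 1.37 CPM in Prr14-WT, those of Ajap1 to 213 ± 14.7 CPM in Prr14-KO and 193 ± 7.07 CPM in Prr14-WT, and those of Adgrl2 to 21.2 ± 3.34 CPM in Prr14-KO and 19.8 ± 3.22 CPM in Prr14-WT (SD, n = 3 each). In all 3 the groups overlapped. Of the 16 sums by distance, some of which share regions, 2 did not overlap between genotypes, in opposite directions. The 10 regions of Ppp1r9a from 50 to 200 kb away held 25.9, 32.5 and 34.4 CPM in Prr14-KO replicates 4, 5 and 7, against 39.1, 37.4 and 36.0 CPM in Prr14-WT replicates 3, 4 and 8. The 30 other regions within 100 kb of the Ajap1 site held 335, 317 and 325 CPM in Prr14-KO replicates 4, 5 and 7, against 306, 312 and 299 CPM in Prr14-WT replicates 3, 4 and 8. Neither sum was tested, and single regions lay apart in this way in 4.93% (Prr14-KO below) and 4.68% (Prr14-KO above) of all tested regions. Within 100 kb of the 3 sites, all deposited regions were assigned to the gene itself, although RefSeq also places Gmfg-ps and Gm36478 near the Ppp1r9a site, and Gm30827, Gm25127 and Gm30575 near the Adgrl2 site.

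Inside the genes, apart from the leading site, the genotypes overlapped in each gene. The 8 regions in the span of Ppp1r9a summed to 19.8 ± 7.23 CPM in Prr14-KO and 19.9 ± 4.96 CPM in Prr14-WT, and the 18 in the span of Ajap1 to 131 ± 9.53 CPM in Prr14-KO and 133 ± 11.8 CPM in Prr14-WT (SD, n = 3 each). For Adgrl2 the 5 regions in the span summed to 27.5 ± 5.02 CPM in Prr14-KO and 22.8 ± 3.37 CPM in Prr14-WT, with overlapping groups.

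The share of each gene's counts that fell in its leading site shows how much a gene sum depends on it. For Ppp1r9a it was 59.4%, 54.1% and 49.0% in Prr14-KO replicates 4, 5 and 7, against 74.8%, 68.3% and 71.6% in Prr14-WT replicates 3, 4 and 8. For Ajap1 it was 6.76% ± 0.692 in Prr14-KO and 13.8% ± 2.10 in Prr14-WT, and for Adgrl2 8.32% ± 0.622 in Prr14-KO and 15.7% ± 1.52 in Prr14-WT (SD, n = 3 each). The log2 differences of the gene sums, leading site included, were -0.90 (SE 0.10) for Ppp1r9a, -0.11 (SE 0.07) for Ajap1 and -0.07 (SE 0.07) for Adgrl2. Only that of Ppp1r9a passed the edgeR test over 15265 gene sums (adjusted p = 1.01e-10, and 1.00 for both others), where 0.0393% passed.

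Of the 305 regions, 237 passed the filter on low counts and 68 did not, 58 of them assigned to Adgrl2. Among the 234 tested regions other than the leading sites, 0 passed edgeR adjustment, and 7 had an unadjusted edgeR p under 0.05, where 3.84% of all tested regions did. All Prr14-KO values lay below all Prr14-WT values in 8 of them, where 4.93% of all tested regions did so, and above in 10, where 4.68% did so. The median log2 change was -0.12 over the 10 other tested regions of Ppp1r9a, 0.02 over the 95 of Ajap1 and 0.10 over the 129 of Adgrl2, against 0.00 over all tested regions. In the authors' deposited table the other regions of the 3 genes had no adjusted p under 0.05. Only 8 of them for Ppp1r9a, 98 for Ajap1 and 137 for Adgrl2 carried an adjusted p there.

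**Figure D3:**
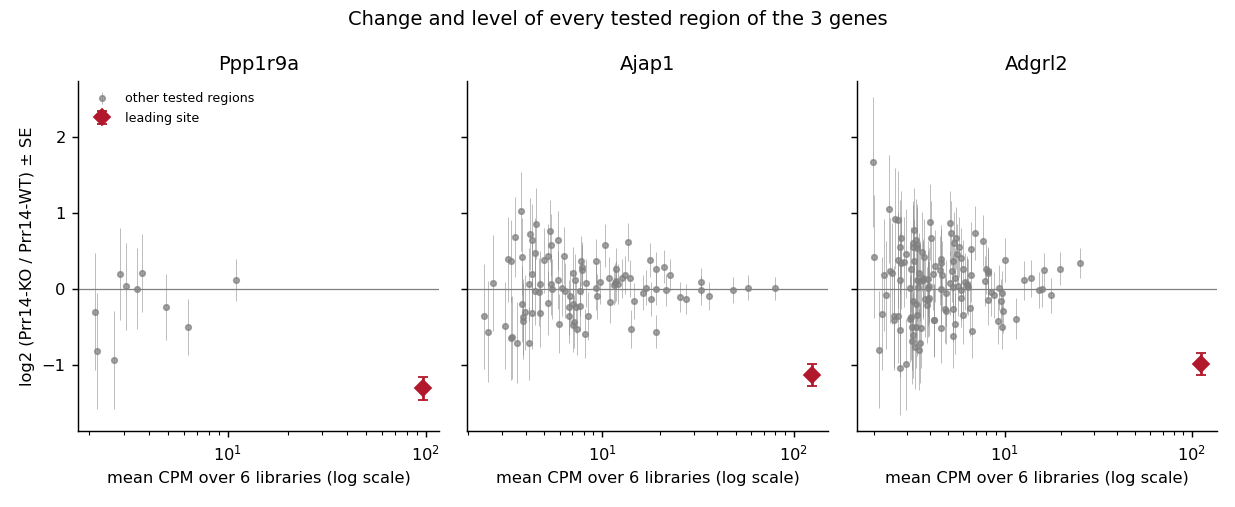
Log2 change (Prr14-KO over Prr14-WT) with its SE against the mean CPM of the 6 libraries on a log axis, for every tested region of each gene; the red diamond is the leading site. The other regions scatter around 0, more widely at low level, and the sites lie at -1.30, -1.13 and -0.98 at the high end of the axis.

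Among the densest regions after the leading sites, the genotypes overlapped in each. The Ajap1 region at 153496930 to 153497949, 14.6 kb upstream of the start, averaged 57.8 ± 10.1 CPM in Prr14-KO and 57.05 ± 1.87 CPM in Prr14-WT (SD, n = 3 each), with a log2 change of 0.02 (SE 0.16). The Ajap1 region at 153025263 to 153025550 averaged 14.02 ± 1.87 CPM in Prr14-KO and 12.3 ± 2.24 CPM in Prr14-WT. At Adgrl2 the next in density, 148347253 to 148347414, had 4.82 ± 2.99 CPM in Prr14-KO and 4.96 ± 0.609 CPM in Prr14-WT. These Adgrl2 regions were short and held few counts. That at 149527592 to 149527782 held 21, 30 and 32 counts in Prr14-KO replicates 4, 5 and 7, against 22, 19 and 19 in Prr14-WT replicates 3, 4 and 8, and that at 149351085 to 149351290 averaged 6.49 ± 1.35 CPM in Prr14-KO and 4.70 ± 2.47 CPM in Prr14-WT. At Ppp1r9a, 4832123 to 4832271 averaged 1.82 ± 0.811 CPM in Prr14-KO and 3.47 ± 1.63 CPM in Prr14-WT, and 4863400 to 4863545 averaged 1.91 ± 1.17 CPM in Prr14-KO and 2.34 ± 1.44 CPM in Prr14-WT.

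After the leading sites, the 2 regions next by p in each direction were named for each gene. That they went both ways was set by this choice. At Ajap1, 153344459 to 153345235 held 55, 64 and 70 counts in Prr14-KO replicates 4, 5 and 7, against 93, 118 and 83 in Prr14-WT replicates 3, 4 and 8, a log2 change of -0.56 (SE 0.22) without overlap. Also at Ajap1, 153083822 to 153084741 had the opposite difference, with 16.6 ± 3.72 CPM in Prr14-KO and 10.7 ± 1.91 CPM in Prr14-WT, a log2 change of 0.62 (SE 0.25). At Adgrl2, 149437644 to 149438041 had 8.71 ± 1.79 CPM in Prr14-KO and 5.20 ± 0.599 CPM in Prr14-WT, a log2 change of 0.74 (SE 0.35). In both of these every Prr14-KO count scaled to CPM lay above every Prr14-WT one. The next by p were 153533768 to 153534343 (log2 change 0.58) and 153331913 to 153332693 (-0.53) of Ajap1, and 149782342 to 149782785 (0.87), 148781870 to 148782490 (-0.50) and 148081080 to 148081297 (-0.99) of Adgrl2. For Ppp1r9a the nearest to a call, 4832123 and 4864819, had log2 changes of -0.93 (SE 0.65) and -0.50 (SE 0.37), and on the higher side 4856771 had 0.12 (SE 0.27). None of these passed (edgeR adjusted p = 0.998 each).

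At promoters and exons the counts were low. The Ppp1r9a promoter region, of which only a part is printed above, held 10, 13 and 25 counts in Prr14-KO replicates 4, 5 and 7, against 14, 13 and 17 in Prr14-WT replicates 3, 4 and 8. The groups overlapped, at a log2 change of 0.21 (SE 0.51), which turned to -0.28 without Prr14-KO replicate 7. Adgrl2 had 3 promoter regions, and that at 148989256 to 148990105, just upstream of the RefSeq span, held 8, 22 and 52 counts in Prr14-KO replicates 4, 5 and 7, against 23, 12 and 20 in Prr14-WT replicates 3, 4 and 8. Prr14-KO replicate 7 alone stood high there: the log2 change was 0.67 (SE 0.40) with it and -0.21 without it. The other promoter regions of Adgrl2, 148821822 to 148822005 and 148823263 to 148823786, had log2 changes of 0.55 (SE 0.62) and 0.31 (SE 0.47) with overlapping groups, and 0.05 and -0.31 without Prr14-KO replicate 7. The Adgrl2 exon region held 37, 24 and 26 counts in Prr14-KO replicates 4, 5 and 7, against 26, 32 and 22 in Prr14-WT replicates 3, 4 and 8. Its region annotated as 5′ UTR held 29, 30 and 40 counts in Prr14-KO replicates 4, 5 and 7, against 30, 21 and 46 in Prr14-WT replicates 3, 4 and 8. The exon region of Ajap1 averaged 4.63 ± 4.48 CPM in Prr14-KO and 4.73 ± 0.809 CPM in Prr14-WT, and Prr14-KO replicate 7 was again the high one. Its log2 change was -0.04 (SE 0.44) with that library and -1.19 (SE 0.61) without it.

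The leading sites were set beside all other regions of at least the density of the Ppp1r9a site. The limit of 207 CPM per kb is a mean over both genotypes, and in Prr14-KO alone all 3 sites were below it, so they entered this comparison through their Prr14-WT values. There were 114 other regions, 3 on the mitochondrial chromosome and 111 on nuclear chromosomes. The log2 changes of the 111 nuclear regions ran from -0.42 to 0.38 around a median of -0.04, and their median SE was 0.13. The 3 leading sites, from -1.30 to -0.98, lay outside this range, and their genes had been picked for that difference. By edgeR 0 of the 111 passed (3 had an unadjusted p under 0.05, against 3.84% of all tested regions), DESeq2 called 0 and limma-voom called 1, a region assigned to Fgf14, a fibroblast growth factor family gene, with a log2 change of -0.42 (limma-voom adjusted p = 0.0303). In 3 of them all Prr14-KO values lay below all Prr14-WT values, and in 3 above, against 4.93% and 4.68% of all tested regions. The comparison was chosen after the values were seen.

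**Figure D4:**
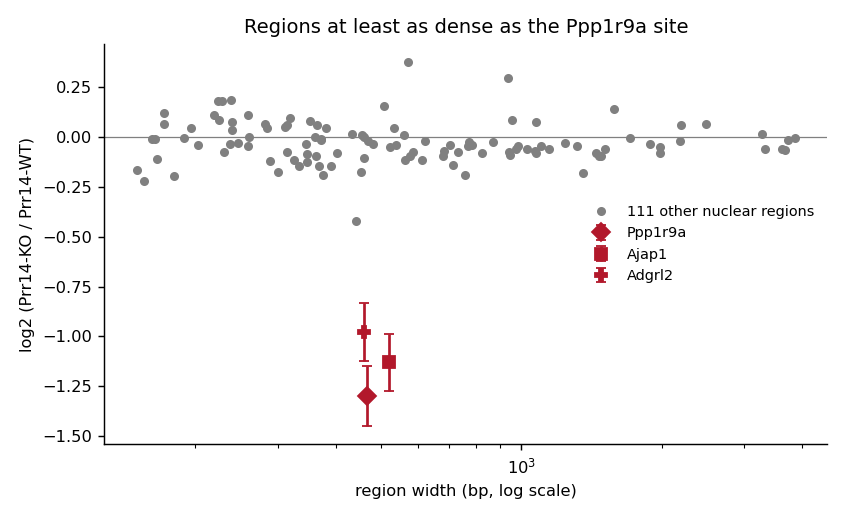
Log2 change (Prr14-KO over Prr14-WT) against region width in bp on a log axis, for nuclear regions at least as dense as the Ppp1r9a site over both genotypes (grey) and the 3 leading sites (red, with SE). The 111 grey points lie between -0.42 and 0.38, and the sites, which reach that density through Prr14-WT, lie between -1.30 and -0.98.

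Regions elsewhere with the most similar profile over the 6 libraries were searched among all tested regions. For Ppp1r9a they were regions assigned to Vmn2r69, Parp12 and Rapgef5, with root mean square differences of 0.102, 0.116 and 0.131 in log2. For Ajap1 they were Slc16a7, H60c and Cacnb4 (0.0818, 0.0888 and 0.0960), and for Adgrl2 they were Copb1, Ano1 and Lrrc4c (0.0707, 0.0753 and 0.0848). These 9 regions were sparse, at 6.66 to 14.9 CPM per kb against 207 to 244 at the sites, with 5 to 29 counts in each library. None of them passed (edgeR adjusted p = 0.998). They were picked as the closest of all tested regions, at low counts, to profiles that had themselves been chosen for their difference. Their likeness to the sites is therefore no finding.

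Genes related to the 3 by function were compared through the same gene sums, which for these genes played no part in the choice of the 3. The lists themselves were drawn up with earlier results of these data known. A gene sum can hide a change at 1 site: those of Ajap1 and Adgrl2, leading sites included, differed by -0.11 and -0.07 in log2. A single site of that kind in a related gene could therefore have been missed. Over all gene sums, 3.58% had an unadjusted edgeR p under 0.05. The list of neurabin and protein phosphatase 1 held 14 genes other than Ppp1r9a. Ppp1r9b, Ppp1r2 and Dcx, with 1 region each, did not pass the filter on low counts, and Ppp1ca had no region. Of the 10 tested genes, 0 rose and 0 fell by edgeR, DESeq2 or limma-voom, and 1 had an unadjusted edgeR p under 0.05. That gene was Ppp1r12b, a myosin phosphatase subunit, at 36.7 ± 2.68 CPM in Prr14-KO and 26.4 ± 5.68 CPM in Prr14-WT (SD, n = 3 each; log2 change 0.47, SE 0.18, edgeR adjusted p = 1.00). Ppp1r3a, which targets the phosphatase to glycogen in muscle, had the most regions of that list (61) and averaged 262 ± 5.19 CPM in Prr14-KO and 254 ± 23.9 CPM in Prr14-WT. Ppp1cb, a catalytic subunit, had 17.7 ± 2.13 CPM in Prr14-KO and 18.4 ± 2.61 CPM in Prr14-WT. The list's median log2 change was -0.02, with a range from -0.21 to 0.47.

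Among latrophilins and their ligands other than Adgrl2, 13 were tested, 0 rose and 0 fell by edgeR, DESeq2 or limma-voom, and 0 had an unadjusted edgeR p under 0.05. Adgrl3, the latrophilin with the most regions (336), averaged 1493 ± 66.5 CPM in Prr14-KO and 1468 ± 51.3 CPM in Prr14-WT, a log2 change of 0.02 (95% interval -0.10 to 0.15). Flrt2, a ligand with 264 regions, averaged 1025 ± 32.9 CPM in Prr14-KO and 1049 ± 67.6 CPM in Prr14-WT, a log2 change of -0.03 (95% interval -0.16 to 0.10). The list ran from -0.30 to 0.37 around a median of -0.03.

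Of the adherens junction genes and relatives of Ajap1, without Ajap1 itself, 16 were tested. Again 0 rose and 0 fell by edgeR, DESeq2 or limma-voom, with 0 at an unadjusted edgeR p under 0.05. The cadherin gene Cdh8 (455 regions) averaged 2185 ± 172 CPM in Prr14-KO and 2222 ± 139 CPM in Prr14-WT, a log2 difference of -0.02 (95% interval -0.15 to 0.10). Cdh2, which encodes N-cadherin (247 regions), had a log2 difference of 0.05 (95% interval -0.08 to 0.18). The median was -0.02 and the range -0.10 to 0.20.

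Ppp1r9a lies in the imprinted cluster of Peg10 and Sgce on proximal chromosome 6, and 13 other genes of that stretch were tested. None passed by edgeR, DESeq2 or limma-voom, and 0 had an unadjusted edgeR p under 0.05. Peg10, a paternally expressed retrotransposon-derived gene, had 45.1 ± 8.70 CPM in Prr14-KO and 45.4 ± 4.57 CPM in Prr14-WT, and Sgce, which encodes epsilon-sarcoglycan, 25.9 ± 4.11 CPM in Prr14-KO and 23.7 ± 5.23 CPM in Prr14-WT (SD, n = 3 each). The genes with the most regions, Dync1i1 (37), a dynein chain gene, and Slc25a13 (34), a mitochondrial carrier gene, had log2 differences of 0.01 (95% interval -0.14 to 0.17) and -0.14 (95% interval -0.30 to 0.03). Over the list the median log2 change was 0.00, as over all gene sums. With 3 libraries per genotype these intervals limit what could be seen, and a p above the threshold does not show equal levels.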

How the data were processed

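H3K9me3 was measured by CUT&Tag in 3 Prr14-KO and 3 Prr14-WT libraries, grouped by genotype label. Build GRCm38, DESeq2 1.6.3, MACS2, BWA, bedtools, Trimmomatic and deepTools are listed, per the submitters' processing notes. The authors deposited raw counts per region, used here, with a normalized signal (the count over 1 factor per library, from the values), which was not used in a test. Their deposited log2 fold change, p-value and score per region were used as named. The sources used here do not say how regions were called or on which libraries.

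Counts were fitted with edgeR 4.0.16 (R 4.3.3): filterByExpr (minimum count 10, minimum total 15), TMM scaling, robust quasi-likelihood test, Benjamini-Hochberg adjustment over all regions (153789 tested) or gene sums (15265), threshold 0.05. In simulated data it recovered 7% of 2-fold and 53% of 4-fold changes at single regions, with 2 false calls. For gene sums it recovered 64% and 90%, with 12 false calls. CPM are counts scaled by the TMM-adjusted total of tested regions or, for gene sums, of tested gene sums, so both kinds differ slightly in scale. No spike-in is named, so a shared change is scaled away. Profiles used log2 with 0.5 added. DESeq2 1.42.0 and limma 3.58.1 were alternatives.

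The genes and lists were chosen with earlier results of these data known. Named were, per gene, the leading site, the 3 densest regions, the 2 next by p in each direction, promoter and exon regions, the 3 most similar regions elsewhere, genes within 100 kb of a site, and, per list, calls and the 2 genes with most regions. Ppp1r12b, Peg10, Sgce and Fgf14 were named after their values were seen.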

Additional observations from a re-analysis of the deposited data

How the results depend on the processing

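The leading sites of Ppp1r9a, Ajap1 and Adgrl2 kept their direction and call in 12 alternatives each (RLE factors, library totals, DESeq2, limma-voom, 2 other filters, and leaving out each library). Leaving out a library gave -1.41 to -1.17, -1.23 to -0.99 and -1.05 to -0.89 on the log2 scale. Their adjusted p reached at most 2.25e-06, 0.000182 and 0.00541, by edgeR without Prr14-WT replicate 3. The genes were chosen by this contrast in these same libraries, so the kept calls support nothing. The regions called among all numbered 20 in the main test, 13 with limma-voom, and 15 to 19 without 1 library, and the cause was not tested. Gene sums called numbered 6, and 6 to 18 without 1 library, the 18 arising without Prr14-KO replicate 4. For the rest of Ajap1 (main log2 ratio 0.02), regions within 100 kb of the site gave 0.0918 and those in the gene's span -0.0287. For the rest of Adgrl2 (0.07), the same choices, which sum other regions, gave 0.31 and 0.27. The rest of Ppp1r9a, at -0.17, stood at 0.04 over all regions within 1 Mb. Another 34 results, for named regions and related genes, passed the threshold in none of 400 alternative values. Some of these values, from DESeq2 at weak regions, had no adjusted p and so could not pass. No paired analysis was possible because the genotypes share only replicate number 4. At this depth the median SE was 0.46 for 1 region and 0.22 for a gene sum. Most 2-fold changes at single regions were missed in simulated data (7% recovered), so the lack of a call at other regions says little about changes of that size.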
